A study of Mus musculus with 9 samples.

Results

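N4-acetylcytidine (ac4C) is a modified base that the acetyltransferase NAT10 makes in 18S rRNA and tRNA and that has also been mapped to mRNA. In acetylated RNA immunoprecipitation with sequencing (acRIP-seq), an antibody against ac4C on protein A beads pulls down the RNA that carries the base. The same RNA on beads with a non-specific rabbit antibody (IgG) shows what the beads recover without ac4C recognition. The comparison described here set the acRIP libraries directly against the IgG libraries of mouse testis poly(A) RNA, and asked which genes, gene types and abundance classes differed between both precipitates.

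The comparison used 6 of the 9 libraries of the series, 3 of the acRIP group and 3 of the IgG group, chosen by their labels. All came from testes of wild-type male mice, of the ICR stock by the study's methods, with no treatment and with no age given. The remaining 3 libraries were of the input RNA before precipitation (Input) and served here to estimate the spread of the test and to class genes by abundance. By the same methods, a synthetic β-globin transcript with ac4C was mixed into the RNA, both precipitates were too scarce to be quantified, and all cDNA was amplified by Smart-seq2 from oligo(dT) primers. The sources used here do not say whether the libraries of a group came from separate animals or precipitations, so p-values measure the spread between these libraries, which may be technical.

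The acRIP libraries held 16025779 to 18639134 counts on genes and the IgG libraries 14647542 to 18786779. Genes with any count numbered 22206 to 22402 in acRIP and 26204 to 26874 in IgG. Spearman correlations over tested genes were 0.989 to 0.990 within acRIP and 0.982 to 0.984 within IgG. Counts of 1 to 20 were mostly even in every library (81.9% to 84.3%). A count of 2 may thus stand for a single fragment, which widens the counting error. A count of 0 allows up to 3 counts in a library. Where a gene was at 0 in every library of a group, its fold change is given as a lower bound against 3 counts per library, and against 6 counts the bounds are smaller by a factor of 2. These bounds and the intervals below cover counting error only. The intervals treat each count as a separate fragment and are too narrow if both mates of a pair were counted. Testis markers were present in both precipitates. Ldhc, the lactate dehydrogenase subunit of germ cells, had 121469 to 136745 counts in acRIP and 115587 to 149177 in IgG, and Cyp17a1, a steroidogenic enzyme of Leydig cells, had 4124 to 5006 and 5201 to 6693.

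The study followed several testis transcripts by RT-qPCR, and its primers show which part of each transcript was read there. They are printed here because the counts per gene cover the whole transcript and the primers cover a short stretch of it. The primers were located by exact match on GRCm38, and a match describes the letters and nothing more. The forward primer of 18S rRNA lies in an exon of CT010467.1 that Gm42418 overlaps (chr17:39848032-39848052, plus strand), and the forward primer of β-globin in an annotated UTR of Hbb-bs (chr7:103828027-103828048, minus strand). Those of Hoxd9 (chr2:74698489-74698509, plus strand), Hoxb7 (chr11:96286778-96286798, plus strand), Rnf183 (chr4:62428462-62428482, minus strand) and Eef1a1 (chr9:78480611-78480631, minus strand) lie in coding sequence. The 18S and Eef1a1 primers had 2 exact matches each on the chromosomes, of which 1 is given, and the Gapdh primers had 53 and 136, so a read from such stretches cannot be given to a single gene. The Enho primers had no exact match and are not printed.
18S rRNA, forward: tgattaagtccctgccctttg
β-globin, forward: tcatcaccgaagcctgattccg
Hoxd9, forward: gccactacgggattaagcctg
Hoxb7, forward: aagttcggttttcgctccagg
Rnf183, forward: ccccaaagtgctagactgctg
Eef1a1, forward: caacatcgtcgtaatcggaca

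Of the 55401 genes in the table, 30955 had a count in at least 1 of the 6 libraries and 22510 passed the filter on low counts and were tested. By edgeR's quasi-likelihood test, 2590 genes (11.5%) were higher in acRIP than in IgG and 4702 (20.9%) were lower, where a call needed an adjusted p (Benjamini-Hochberg) under 0.05 together with a change of more than 2-fold. Genes called lower were therefore the larger group, and 35.5% of all called genes were higher. Large differences leaned the same way, since 2541 genes were lower by more than 3 on the log2 scale and 685 were higher by more than 3. A further 7128 genes passed the adjusted p alone, with a fold change of 2 or less. The median log2 fold change of all tested genes was -0.09.

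Replicates of a group lay closer together than the precipitates did. The median SD of log2 CPM (counts scaled to the library total) over the 3 libraries of a group was 0.15 in acRIP and 0.17 in IgG, against a median absolute difference of 0.51 between the group means. All 3 acRIP libraries lay above all 3 IgG libraries in 25.4% of tested genes and below them in 40.2%. Of the called genes, 2516 of the 2590 higher and 4489 of the 4702 lower had no overlap between groups. These shares include every tested gene, and the calls use the same libraries, so neither is independent of the other.

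**Figure D1:**
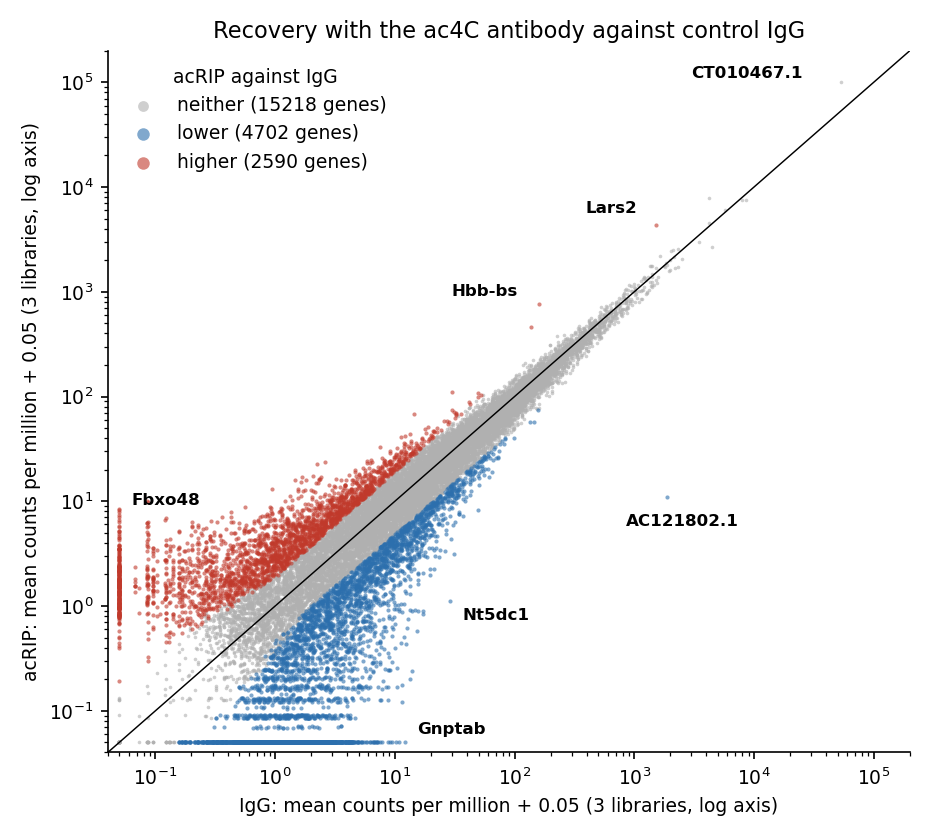
Mean CPM of each of the 22510 tested genes in the 3 IgG libraries (x axis) and the 3 acRIP libraries (y axis), both on log axes with 0.05 added. Points are red for the 2590 genes called higher in acRIP, blue for the 4702 called lower and grey otherwise, and the line marks equal values. The 2 clouds of called genes widen towards low counts, and the points along the left and lower edges had no count in IgG or in acRIP.

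The transcripts that the study followed by RT-qPCR were chosen by it on these samples, so their direction is not independent evidence. Enho encodes adropin, a secreted peptide, and its counts were 215, 229 and 222 in the acRIP libraries against 28, 22 and 26 in the IgG libraries. Hoxd9 and Hoxb7 are homeobox transcription factors of body patterning. Hoxd9 had 106, 106 and 82 counts in acRIP and 29, 26 and 21 in IgG, and Hoxb7 had 43, 49 and 52 in acRIP and 0 in every IgG library. Rnf183, a RING finger ubiquitin ligase, had 66, 48 and 90 counts in acRIP and 0, 10 and 2 in IgG. All 4 genes were called higher without overlap between groups. By edgeR, the log2 fold change was 3.18 for Enho (SE 0.26, adjusted p = 7.78e-12), 2.00 for Hoxd9 (SE 0.34, adjusted p = 6.89e-06) and 4.16 for Rnf183 (SE 0.61, adjusted p = 7.53e-07), and Hoxb7 was at least 16.0-fold higher (adjusted p = 2.62e-07).

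Both transcripts used as non-acetylated references behaved differently from each other. Eef1a1, the translation elongation factor 1α, had 21722, 25273 and 23000 counts in acRIP and 17713, 23146 and 21922 in IgG, a log2 fold change of 0.22 (SE 0.03, adjusted p = 4.10e-07 by edgeR) that stayed far under the 2-fold limit. Gapdh, a glycolytic enzyme with many processed copies in the mouse genome, was sparse under the unique mapping used for these counts, with 0, 2 and 0 counts in acRIP and 14, 22 and 30 in IgG. It was called lower (log2 fold change -4.77, SE 0.89, adjusted p = 2.59e-05 by edgeR), and its pooled ratio of 32.6 had a counting interval of 8.68 to 275. The reads of Gapdh that map to several copies were not counted, so this value covers only the uniquely mapped part.

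Genes of the writer complex and related genes differed between the precipitates by less than 2-fold. The study places NAT10, PCBP1, PCBP2 and TDP43 in the mRNA writer complex and gives THUMPD1 as required for tRNA acetylation. Pcbp3 and Pcbp4 were listed here as genes of the same family and are not named by the study as members. None of the 7 genes listed (Nat10, Thumpd1, Tardbp, Pcbp1, Pcbp2, Pcbp3 and Pcbp4) was called, with log2 fold changes from -0.89 to 0.71, although 6 of the 7 passed the adjusted p alone by edgeR and Nat10, Pcbp1, Pcbp2, Pcbp3 and Pcbp4 had no overlap between groups. Pcbp2, a poly(C)-binding protein, had 2561, 2952 and 2787 counts in acRIP and 1506, 1960 and 1852 in IgG, the largest difference upwards (0.71, SE 0.05, adjusted p = 4.94e-13 by edgeR). Pcbp4 had the lowest value (-0.89, SE 0.16, adjusted p = 1.32e-05 by edgeR), which passed the 2-fold limit without IgG replicate 3 (-1.07) and without acRIP replicate 2 (-1.03). Tardbp, which encodes TDP43, had a log2 fold change of 0.10 (SE 0.05, adjusted p = 0.101 by edgeR).

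Protein coding genes with the highest fold changes had counts in every acRIP library and none in IgG. Fbxo48 (chr11:16951375-16954772 on GRCm38, plus strand), an F-box protein of ubiquitin ligases, had 138, 140 and 152 counts in acRIP and 0 in each IgG library, at least 47.9-fold higher (adjusted p = 2.27e-12 by edgeR). Tbr1, a T-box transcription factor of cortical neurons, followed with 128, 150 and 140 counts against 0, at least 46.4-fold. The same pattern of 0 counts in all 3 IgG libraries held for Igdcc3, a membrane protein of the immunoglobulin superfamily (125, 148 and 130 counts in acRIP), Btn1a1, a butyrophilin of milk fat (128, 122 and 126), and Cdh1, which encodes E-cadherin (90, 152 and 120). It also held for Dntt, the terminal transferase of lymphocyte precursors (126, 102 and 106), and Tns4, a tensin of focal adhesions (108, 114 and 104). Their bounds lay between 36.2-fold and 44.7-fold.

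In 3 further genes of this rank the IgG libraries together held 2 counts. Muc6, a gastric mucin, had 162, 162 and 190 counts in acRIP and 0, 2 and 0 in IgG, a ratio of 260 with a counting interval of 71.6 to 2152. Kif4, a chromokinesin of mitosis, had 98, 112 and 106 against 0, 2 and 0, and Ppp1r17, an inhibitor of protein phosphatases in Purkinje cells, had 92, 72 and 156 against 0, 0 and 2. These genes were also scarce before precipitation. Of the 10, only Kif4 had more than 50 counts in any Input library (72, 78 and 72). Those with few counts in both Input and IgG passed the filter through the acRIP group where they were high. Their calls and adjusted p-values were thus partly set by the filter.

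The genes with the lowest fold changes formed the mirror image, with 0 counts in all acRIP libraries. Gnptab (chr10:88379132-88447329 on GRCm38, plus strand), the phosphotransferase that marks enzymes for the lysosome, had 135, 231 and 269 counts in IgG and 0 in each acRIP library, at least 68.3-fold lower (adjusted p = 8.24e-15 by edgeR). Slc35g1, a solute carrier, had 148, 201 and 212 counts in IgG, Cyp2r1, the vitamin D 25-hydroxylase, had 171, 156 and 192, and Mtrf1, a mitochondrial translation release factor, had 137, 143 and 206. All 3 were at 0 in every acRIP library, with bounds of 53.2-fold to 61.1-fold. Bmpr2, a receptor of bone morphogenetic proteins, was also at 0 in acRIP, with 90, 200 and 192 counts in IgG.

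The other 5 of the 10 lowest were Siah1b, a ubiquitin ligase, Arfip2, an effector of small GTPases, Casp9, the initiator caspase of apoptosis, Lamb3, a laminin chain, and Scamp5, a secretory carrier membrane protein. Each had between 86 and 194 counts in an IgG library and 0 in every acRIP library, with bounds of at most 49.9-fold. Unlike the genes at the other end, apart from Kif4, all 10 were well represented before precipitation. Their Input libraries held from 46 counts, in Scamp5, to 317, in Arfip2. The acRIP libraries therefore lacked reads of transcripts that both the Input and the IgG libraries held.

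**Figure D2:**
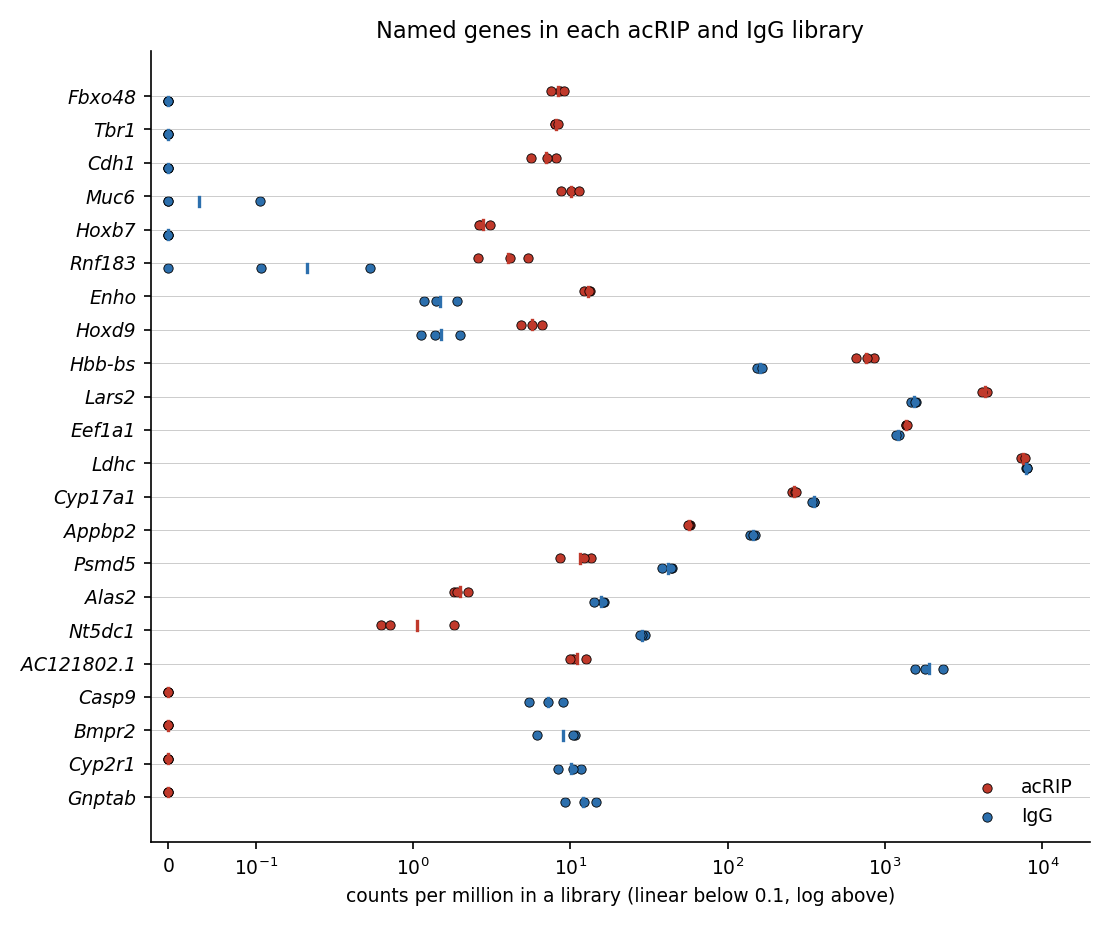
CPM of 22 named genes in each of the 3 acRIP libraries (red points) and the 3 IgG libraries (blue points), with the group mean as a short bar; the axis is linear below 0.1 and logarithmic above. Groups do not overlap in the genes called, and Fbxo48, Tbr1, Cdh1 and Hoxb7 were at 0 in all IgG libraries while Casp9, Bmpr2, Cyp2r1 and Gnptab were at 0 in all acRIP libraries.

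Such absences were counted over the whole table. In 1087 genes all acRIP libraries were at 0 and all IgG libraries had at least 10 counts, and in 252 genes the reverse held. At 50 counts or more the numbers were 64 and 25. Within a group, no gene was at 0 in a library and at 50 counts or more in another, in acRIP or in IgG, while at 10 counts or more 267 genes did so in acRIP and 713 in IgG. Against Input, 180 genes with at least 50 counts in every Input library were at 0 in all acRIP libraries and no gene was at 0 in all IgG libraries. Absences at 50 counts or more were thus shared by all 3 libraries of a group. Whether this arose at precipitation or at a later common step was not tested.

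Among genes of other types, the same shape was seen, with the same limit of the filter for genes scarce in both Input and IgG. Gm43175 (180, 130 and 192 counts in acRIP against 0, 0 and 2 in IgG), Gm47588 (122, 124 and 72 against 0, 2 and 0) and 9530056E24Rik (102, 130 and 68 against 0, 0 and 2) had the highest log2 fold changes, and Gm17435 and AC108433.1 followed with 6.44 and 4.96. Gm45223, Gm6744, Gm7745, BC022960 and Gm43200 were at 0 in all acRIP libraries and had between 42 and 169 counts in an IgG library. Gm6744 belonged to the class of high abundance, with 271 to 388 counts in Input.

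Among called genes, those with the largest differences in CPM were mostly of high abundance in Input. Hsf2 and Mbtd1 were of middle abundance and AC121802.1 was of low abundance. Lars2, the mitochondrial leucyl-tRNA synthetase, is among the loci whose sequence resembles ribosomal RNA, and it had 70426, 83114 and 69197 counts in acRIP against 21472, 29547 and 28884 in IgG (log2 fold change 1.55, SE 0.03, adjusted p = 1.74e-26 by edgeR). Gm15564, of the same list, had 7330, 9057 and 7153 against 1836, 2573 and 2785 (1.78, SE 0.06). The rRNA locus CT010467.1 held the largest number of counts in each of the 6 libraries, 9.35% to 10.6% of an acRIP library and 5.14% to 5.57% of an IgG library. Its log2 fold change of 0.95 (SE 0.04, adjusted p = 1.01e-19 by edgeR) lay just under the 2-fold limit, as did the 0.96 of the mitochondrial rRNA mt-Rnr2 (SE 0.03), and that of mt-Rnr1 was 0.49 (SE 0.04). Without acRIP replicate 3, CT010467.1 passed the limit with 1.01.

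Hbb-bs (chr7:103826534-103828096 on GRCm38, minus strand), a β-globin gene, had 10429, 15975 and 12979 counts in acRIP against 2315, 2886 and 3095 in IgG, the highest fold change among called protein coding genes of high abundance with a mean of at least 50 counts (2.30, SE 0.06, adjusted p = 7.01e-24 by edgeR). The other 3 globin genes listed were not called. Hbb-bt had 150, 192 and 178 counts against 140, 136 and 145 (0.35, SE 0.19, adjusted p = 0.0975 by edgeR), and Hba-a1 had 388, 498 and 457 against 461, 450 and 482 (0.00, SE 0.11, adjusted p = 0.984 by edgeR). The groups of Hba-a2 overlapped at 6 to 23 counts in a library. The added β-globin probe was detected with a primer that matches Hbb-bs, and its part in the Hbb-bs counts was not tested. Of the other called genes with large rises in CPM, Gm23935, annotated as a miRNA gene, had 1930, 2086 and 1625 counts against 461, 580 and 508 (1.93, SE 0.11), and Hsf2, a heat shock transcription factor active in spermatocytes, had 1606, 1913 and 2065 against 654, 924 and 996 (1.19, SE 0.07).

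AC121802.1, an annotated lincRNA, had the largest fall in CPM of the called genes. It had 203, 193 and 167 counts in acRIP and 22652, 33953 and 43134 in IgG, against 4, 8 and 4 in Input (log2 fold change -7.38, SE 0.11, adjusted p = 3.70e-31 by edgeR). Among the 9 libraries the counts were high in the 3 IgG libraries alone. The called genes that came next by the fall in CPM had moderate fold changes. Appbp2, a protein that binds the amyloid precursor protein, had 922, 1061 and 932 counts against 2034, 2784 and 2688 (-1.30, SE 0.06), and Mbtd1, a chromatin reader, had 910, 1096 and 933 against 2047, 2390 and 2512 (-1.18, SE 0.06). Gramd1c (-1.01) stood at the limit and fell short of it under 5 other settings, from -0.98 to -0.96, and without IgG replicate 1 (-0.97), acRIP replicate 1 (-0.96) or acRIP replicate 2 (-0.98), and Gm6185 had -1.27.

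Gene types differed in how often their members were called. Annotated types were taken from GENCODE, where TEC marks transcripts still to be experimentally checked. Of 15522 tested protein coding genes, 1398 (9.01%) were higher and 3057 (19.7%) lower, with a median log2 fold change of -0.11. Of 3840 long noncoding genes, 691 were higher and 1000 (26.0%) lower, with a median of -0.06. Pseudogenes had 284 of 2273 higher (12.5%) and 357 lower (15.7%), and TEC genes 175 of 714 higher (24.5%) and 260 lower (36.4%). All these values stand beside 11.5% higher and 20.9% lower over all tested genes.

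The class of small RNA genes and other types had more members higher than lower. With the 6 libraries alone, pseudogenes did as well (14.4% and 12.1%), and on log2(FPKM + 1) so did TEC genes (3.36% and 3.15%). Of 121 tested genes of small RNAs and other types, 36 were higher (29.8%) and 15 lower (12.4%), and their median log2 fold change was 0.81. This class also held rRNA genes and 12 immunoglobulin V genes, of which 1 was higher and 5 lower. Its shares are therefore not those of small RNAs alone. Most of this class did not pass the filter, as 6602 such genes are in the table. Of 24 tested snoRNA genes, 12 were higher and 0 lower (median 1.55). Snord104, a box C/D snoRNA, had 70, 84 and 84 counts in acRIP and 32, 28 and 20 in IgG, and Snord71 had 41, 43 and 40 against 9, 7 and 3. Snora31, an H/ACA snoRNA, had 22, 19 and 24 against 0, 4 and 2. These 3 were named after their values were seen, and the other 9 called carry Gm symbols.

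Of 29 snRNA genes, 10 were higher and 2 lower, among them Rnu12, the minor spliceosome U12 RNA, with 67, 42 and 36 counts in acRIP and 4, 17 and 2 in IgG. Of 28 miRNA genes, 9 were higher and 5 lower. Small RNA genes lie inside or beside longer transcripts, and the sources used here do not state that counting used strand, so reads of a host or overlapping transcript cannot be told apart from reads of the small RNA. A member with few counts in IgG passed the filter through the group where it was high, so its call was partly set by the filter.

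Subtypes of long noncoding genes were called in different shares, beside 11.5% higher and 20.9% lower over all tested genes. Of 2040 lincRNA genes, 375 were higher (18.4%) and 586 lower (28.7%), and of 1173 antisense genes, 216 were higher (18.4%) and 265 lower (22.6%). Sense intronic genes had 24.5% of 106 higher and 27.4% lower, and genes of bidirectional promoters 12.2% of 131 higher and 19.1% lower. Among nuclear and imprinted noncoding RNAs, 8 of 14 were tested, of which 2 were higher and 2 lower. Neat1, the scaffold of paraspeckles, had 504, 604 and 624 counts in acRIP and 200, 208 and 260 in IgG (log2 fold change 1.44, SE 0.12). Miat, a nuclear RNA, had 10, 17 and 5 against 52, 45 and 56 (-2.21, SE 0.45). Of the 15 snoRNA host genes, 4 were higher and 2 lower. Snhg17 had 247, 243 and 248 counts against 74, 110 and 138, while Snhg15 had 0 in every acRIP library and 24, 42 and 44 in IgG.

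The share of tested genes called was smallest among transcripts that were abundant before precipitation. Genes were classed by their mean FPKM in the 3 Input libraries, whose reads are not part of the contrast: lowest under 0.1, low from 0.1, middle from 1 and high from 10. In the class of high abundance, 59 of 5690 tested genes were higher (1.04%) and 178 lower (3.13%). In the middle class 769 of 9219 were higher (8.34%) and 1730 lower (18.8%), and in the low class 1279 of 6443 were higher (19.9%) and 2396 lower (37.2%). Over 100 FPKM, 4 of 951 genes were called in either direction. In the lowest class 483 of 1158 tested genes were higher (41.7%) and 398 lower (34.4%), but 29495 genes belong to this class and the tested ones passed the filter mainly through a group where they were high, so these shares describe no more than the genes that passed. Which direction was the more frequent in this class also turned when any acRIP library was left out (31.6% to 32.5% higher and 41.4% to 42.5% lower) or any Input library (35.5% to 35.9% higher and 42.2% to 42.5% lower).

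Both the spread between replicates and the difference between groups were larger at low abundance. The median SD of log2 CPM was 0.08 in acRIP and 0.07 in IgG in the class of high abundance, and 0.22 and 0.30 in the low class. The median absolute difference between groups was 0.24 and 0.94 in these classes. Genes of low abundance were also detected less often in acRIP. Of the 10772 genes of the low class, 53.8% to 54.8% had a count in an acRIP library and 72.3% to 75.3% in an IgG library. In the middle class the shares were 93.1% to 93.6% and 98.3% to 98.5%, and in the class of high abundance at least 99.9% in either group. The low class held 2.00% to 2.06% of acRIP counts and 2.25% to 2.36% of IgG counts.

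Type and abundance were then crossed, since noncoding genes are less abundant. Protein coding genes of high abundance were the group called least, with 0.306% of 4247 higher and 2.38% lower. Long noncoding genes of high abundance had 37 of 792 higher (4.67%) and 47 lower (5.93%), and pseudogenes of high abundance 5 of 595 higher (0.840%) and 28 lower (4.71%). In the middle class, 376 of 6255 protein coding genes were higher (6.01%) and 1023 lower (16.4%), against 252 (14.8%) and 458 (27.0%) of 1699 long noncoding genes. In the low class 18.4% of protein coding genes were higher and 38.0% lower, against 25.0% and 39.0% of long noncoding genes, 20.9% and 22.7% of pseudogenes and 18.7% and 45.9% of TEC genes. Protein coding genes had a median of 4151 bases of merged exons and long noncoding genes of 1179, so at equal FPKM the long noncoding genes had fewer counts.

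**Figure D3:**
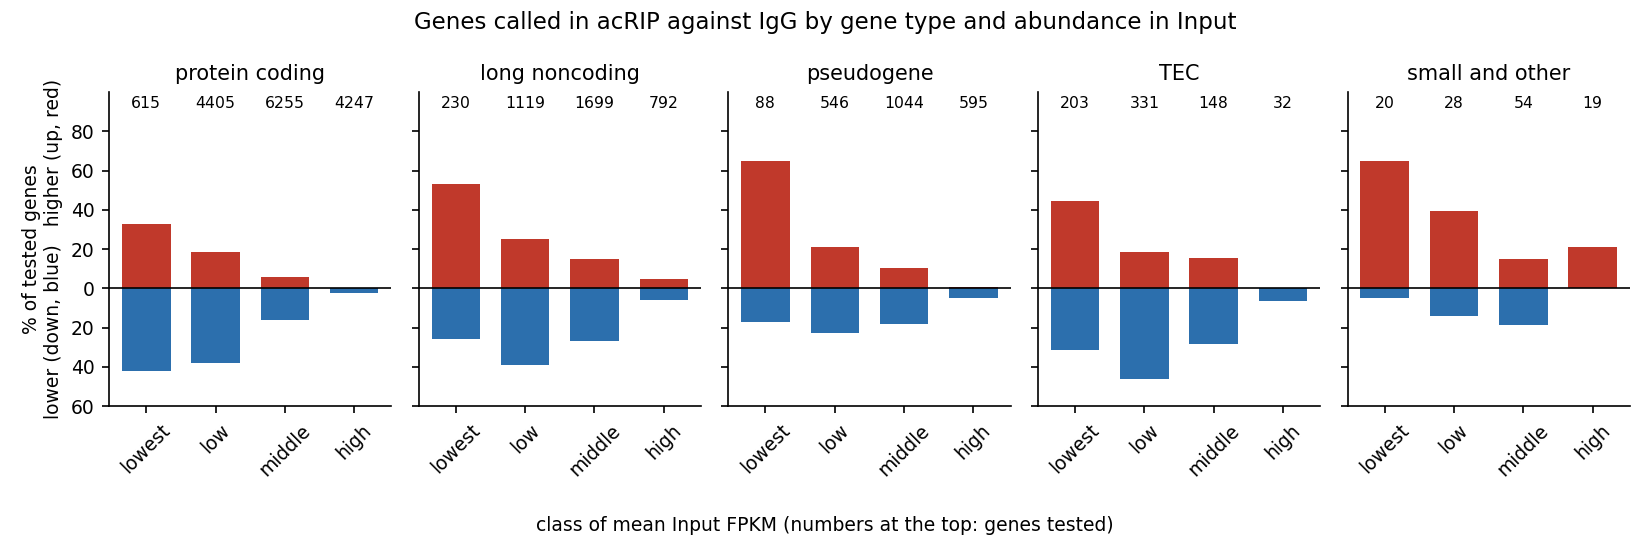
Share of tested genes called higher (red, upwards) and lower (blue, downwards) in acRIP than in IgG, in percent, for 5 gene types (panels) and 4 classes of mean Input FPKM (x axis); numbers at the top are genes tested. In every type the share called was smallest at high abundance, and protein coding genes of that class had 0.306% higher and 2.38% lower.

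Among called protein coding genes with a mean of at least 50 counts, several extremes of a class were given above. The highest were Hbb-bs in the class of high abundance, Fbxo48 in the low class and Igdcc3 in the lowest class. The lowest were Gnptab in the middle class (log2 fold change -10.9) and Slc35g1 in the low class. The remaining extremes were the lowest of the high and lowest classes and the highest of the middle class. In the class of high abundance, Nt5dc1, a member of the 5'-nucleotidase family, had 10, 34 and 12 counts in acRIP and 436, 537 and 519 in IgG (log2 fold change -4.67, SE 0.19, adjusted p = 8.66e-19 by edgeR). In the middle class, Pla2g4d, a cytosolic phospholipase, had 428, 388 and 389 counts against 20, 69 and 48 (3.23, SE 0.22). In the lowest class, Bsn, a scaffold of the presynaptic active zone, had 10, 6 and 8 counts against 59, 127 and 96 (-3.44, SE 0.41).

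Genes of spermatids and sperm, which are abundant in testis RNA, mostly differed by less than 2-fold. Of the 20 listed genes of the sperm tail and the 20 of the acrosome and gamete fusion, all were tested and none was called, with log2 fold changes from -0.21 to 0.42 and from -0.63 to 0.65. In each list 19 of the 20 were in the class of high abundance, where 1.04% of tested genes were higher and 3.13% lower. Few calls would therefore be found in lists of this abundance. Crisp2, a sperm protein bound to the acrosome and tail, had 29361, 32366 and 31281 counts in acRIP and 26911, 34738 and 36409 in IgG (-0.01, SE 0.03). Of 12 genes of spermatid chromatin, 2 were lower. Both encode testis histones, namely Hist1h1t, the testis linker histone, with 0 counts in acRIP and 16, 46 and 34 in IgG, and Hist1h2aa, with 0 in acRIP and 10, 5 and 4 in IgG. Hist1h1t was at least 10.2-fold lower and Hist1h2aa at least 2.21-fold lower. Against 6 counts the bound of Hist1h2aa was 1.10-fold, under the 2-fold limit. Of 58 genes of axonemal dyneins and cilia, 1 was higher and 3 lower, and Cfap157, a cilium protein needed for sperm, had 54, 107 and 88 counts against 472, 486 and 406 (-2.41, SE 0.15).

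Meiotic genes were called lower at about the share of all tested genes. Of 32 tested, 2 were higher and 7 lower (21.9%, against 20.9% of all tested genes), with a median log2 fold change of -0.21. However, 17 of the 32 were in the class of high abundance and 11 in the middle class. In these classes 3.13% and 18.8% of tested genes were lower. Msh4 and Msh5 form the MutSγ complex that stabilises crossover intermediates. Msh4 had 88, 141 and 130 counts in acRIP and 413, 514 and 441 in IgG (-1.87, SE 0.13), and Msh5 had 21, 14 and 48 against 177, 206 and 182 (-2.70, SE 0.27). Ccnb1ip1, a ubiquitin ligase of crossing over, had 72, 66 and 68 against 234, 268 and 296 (-1.89, SE 0.16), and Hormad2, a protein of the meiotic chromosome axis, had 174, 197 and 187 against 407, 639 and 600 (-1.48, SE 0.11). Summed over the list, meiotic genes made up 0.199% to 0.205% of acRIP counts and 0.226% to 0.236% of IgG counts. In the piRNA pathway, 1 of 21 was higher and 1 lower. These were Btbd18, a nuclear factor of pachytene piRNA loci, with 64, 134 and 124 against 8, 16 and 42, and Pnldc1, the trimmer of piRNA ends, with 67, 82 and 68 against 156, 170 and 148. The call of Pnldc1 (-1.07) was lost without IgG replicate 1 (-0.97).

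Markers of spermatogonia went both ways, with 3 of 17 higher and 2 lower. Over all tested genes 11.5% were higher and 20.9% lower. In the middle class, which held 10 of the 17, the shares were 8.34% and 18.8%. Zbtb16, a transcription factor of stem spermatogonia also known as PLZF, had 145, 148 and 184 counts in acRIP and 20, 50 and 46 in IgG (2.13, SE 0.29). Gfra1, the GDNF receptor of the same cells, had 46, 46 and 49 against 166, 195 and 279 (-2.11, SE 0.20). Both genes mark one cell state, and their values pointed in opposite directions.

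Somatic cell markers showed no common direction either. Their counts stand beside 11.5% higher and 20.9% lower over all tested genes. The shares were 1.04% and 3.13% in the class of high abundance, 8.34% and 18.8% in the middle class and 19.9% and 37.2% in the low class. None of 12 Leydig cell genes was called, and their sum was 0.126% to 0.130% of acRIP counts and 0.129% to 0.131% of IgG counts. Of 19 Sertoli cell genes, 3 were lower. Trf, which encodes transferrin, had 20, 36 and 12 counts against 107, 123 and 112, and Dhh, the desert hedgehog ligand, had 26, 52 and 12 against 83, 78 and 93. Fshr, the receptor of follicle-stimulating hormone, had 16, 18 and 30 against 24, 77 and 44, and its call was lost without IgG replicate 2 (-0.64), without acRIP replicate 1 (-0.92) and without acRIP replicate 2 (-0.92). Of 13 genes of endothelium and macrophages, 4 were higher and 5 lower, among them Cdh5, the endothelial cadherin, with 96, 90 and 126 counts in acRIP and 4, 10 and 10 in IgG. Csf1r, a receptor of macrophages, had 14, 2 and 6 against 69, 93 and 104. Of 7 genes of peritubular smooth muscle, 1 was higher, namely Tagln, an actin-binding protein, with 63, 73 and 32 against 4, 0 and 6.

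Red cell genes other than globins were also split. Alas2, the enzyme that starts haem synthesis in erythroid cells, had 36, 34 and 32 counts in acRIP and 240, 304 and 264 in IgG (-2.92, SE 0.18, adjusted p = 1.56e-14 by edgeR). Sptb, which encodes β-spectrin, had 142, 203 and 152 against 82, 70 and 80, and Rhd, a blood group protein, had 69, 64 and 64 against 8, 5 and 22. Of 10 markers listed, 6 were tested, and as a list they made up 0.00278% to 0.00297% of acRIP counts and 0.00353% to 0.00437% of IgG counts.

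Genes of general cell upkeep are mostly abundant in testis, and their counts stand beside 11.5% higher and 20.9% lower over all tested genes and 1.04% and 3.13% in the class of high abundance. Of 84 cytosolic ribosomal protein genes, 1 was higher and 5 lower (median log2 fold change 0.20), of 74 mitochondrial ribosomal protein genes 2 and 2 (0.01), of 79 genes of oxidative phosphorylation 2 and 1 (0.09), of 64 translation factors 0 and 5 (-0.14) and of 37 proteasome genes 0 and 1 (-0.15). Only 1 of 20 tested transcripts of the mitochondrial genome was called, mt-Tp, a tRNA with 10 to 24 counts in acRIP and 37 to 60 in IgG, and this call was lost without IgG replicate 3 (-1.08, adjusted p = 0.0933 by edgeR) and without acRIP replicate 2 (-0.89, adjusted p = 0.121). Psmd5, a chaperone of proteasome assembly, had 217, 161 and 206 counts against 645, 818 and 716 (-1.83, SE 0.12). Eif2ak2, the RNA-activated kinase PKR, had 14, 14 and 10 against 148, 189 and 167 (-3.65, SE 0.27), and Eif2a, an initiation factor, had 64, 98 and 78 against 215, 239 and 230 (-1.46, SE 0.17). Among the SR and hnRNP proteins 1 of 29 was higher and 2 lower. Hnrnpl, a regulator of splicing, had 1177, 1244 and 1193 counts in acRIP and 493, 539 and 590 in IgG (1.22, SE 0.08), and it was of middle abundance. Several ribosomal protein genes share reads with processed copies, so the called ones, such as Rpl27a (-1.53), Rps6 (-1.18) and Rpl36a (0 in acRIP, 6 to 20 in IgG), hold only uniquely mapped reads. Rps6 lost its call without acRIP replicate 3 (-0.95).

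Families of developmental genes are scarce in testis, and their shares stand beside 11.5% higher and 20.9% lower over all tested genes and 19.9% and 37.2% in the low class. Hox genes had a median Input FPKM of 0.23 and lay, like most of these families, in the low class. Of 15 tested Hox genes, 6 were higher and 1 lower, with a median log2 fold change of 0.89, and 24 of the 39 Hox genes in the table were not tested. Hoxa5, the gene lower, had 0 counts in acRIP and 20, 24 and 12 in IgG. As a list, Hox genes made up 0.00904% to 0.00950% of acRIP counts and 0.0116% to 0.0129% of IgG counts, so their summed level was lower in acRIP while most called members were higher. The counts per gene passed the filter partly through the group where a gene was high, and the number higher supports nothing about the family.

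Of 84 other developmental regulators tested, 20 were higher (23.8%) and 19 lower (22.6%). Foxn2, a forkhead factor, had 203, 360 and 282 counts in acRIP and 62, 38 and 62 in IgG, and Gata3, a factor of T cells and several epithelia, had 84, 78 and 76 against 14, 18 and 10. In the other direction, Sox18, a factor of vessels, had 0 in every acRIP library and 41, 46 and 32 in IgG, and Irx2, an Iroquois factor, had 0 in acRIP and 40, 50 and 52 in IgG. Olfactory receptors had 23 of 78 tested members higher (29.5%) and 21 lower (26.9%), of 1093 in the table. Over all tested genes the shares were 11.5% and 20.9%. Olfr653 had 76, 93 and 75 counts in acRIP and 0, 0 and 2 in IgG, and Olfr1507 had 2, 13 and 10 against 64, 97 and 65. Clustered protocadherins, cell adhesion proteins of neurons, had 9 of 23 higher and 8 lower, of 55 in the table. Pcdhb7 had 30, 76 and 63 against 0, 2 and 2, and Pcdha8 had 0 in acRIP against 53, 55 and 54. As with Hox genes, scarce members passed the filter partly through the group where they were high. The numbers called therefore support nothing about these families.

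Collagens and zinc finger genes leaned lower, as did all tested genes (11.5% higher and 20.9% lower). Collagens had a median Input FPKM of 0.68, in the low class, where 19.9% were higher and 37.2% lower. In the middle class these shares were 8.34% and 18.8%. Of 37 tested collagen genes, 3 were higher and 17 lower (45.9%), with a median log2 fold change of -0.91. Col16a1 had 261, 264 and 313 counts in acRIP and 657, 878 and 838 in IgG (-1.43, SE 0.10), Col4a2, of basement membranes, had 42, 54 and 48 against 180, 228 and 244 (-2.11, SE 0.19), and Col9a1, of cartilage, had 2, 2 and 0 against 56, 76 and 68. The summed counts of the list did not fall with them, at 0.0637% to 0.0650% of an acRIP library and 0.0588% to 0.0620% of an IgG library, and its most abundant member, Col22a1, was not called, with 4680, 5502 and 4635 counts in acRIP and a log2 fold change of 0.45. Of 326 tested Zfp genes, 35 were higher (10.7%) and 95 lower (29.1%). Of these 326, 157 were in the middle class and 32 in the class of high abundance. Zfp81 had 88, 116 and 99 counts against 474, 570 and 551 (-2.33, SE 0.12), and Zfp846 had 498, 605 and 582 against 112, 146 and 132 (2.17, SE 0.13). Of 23 clustered histone genes tested, 5 were higher and 6 lower, and many of these genes share sequence with each other.

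**Figure D4:**
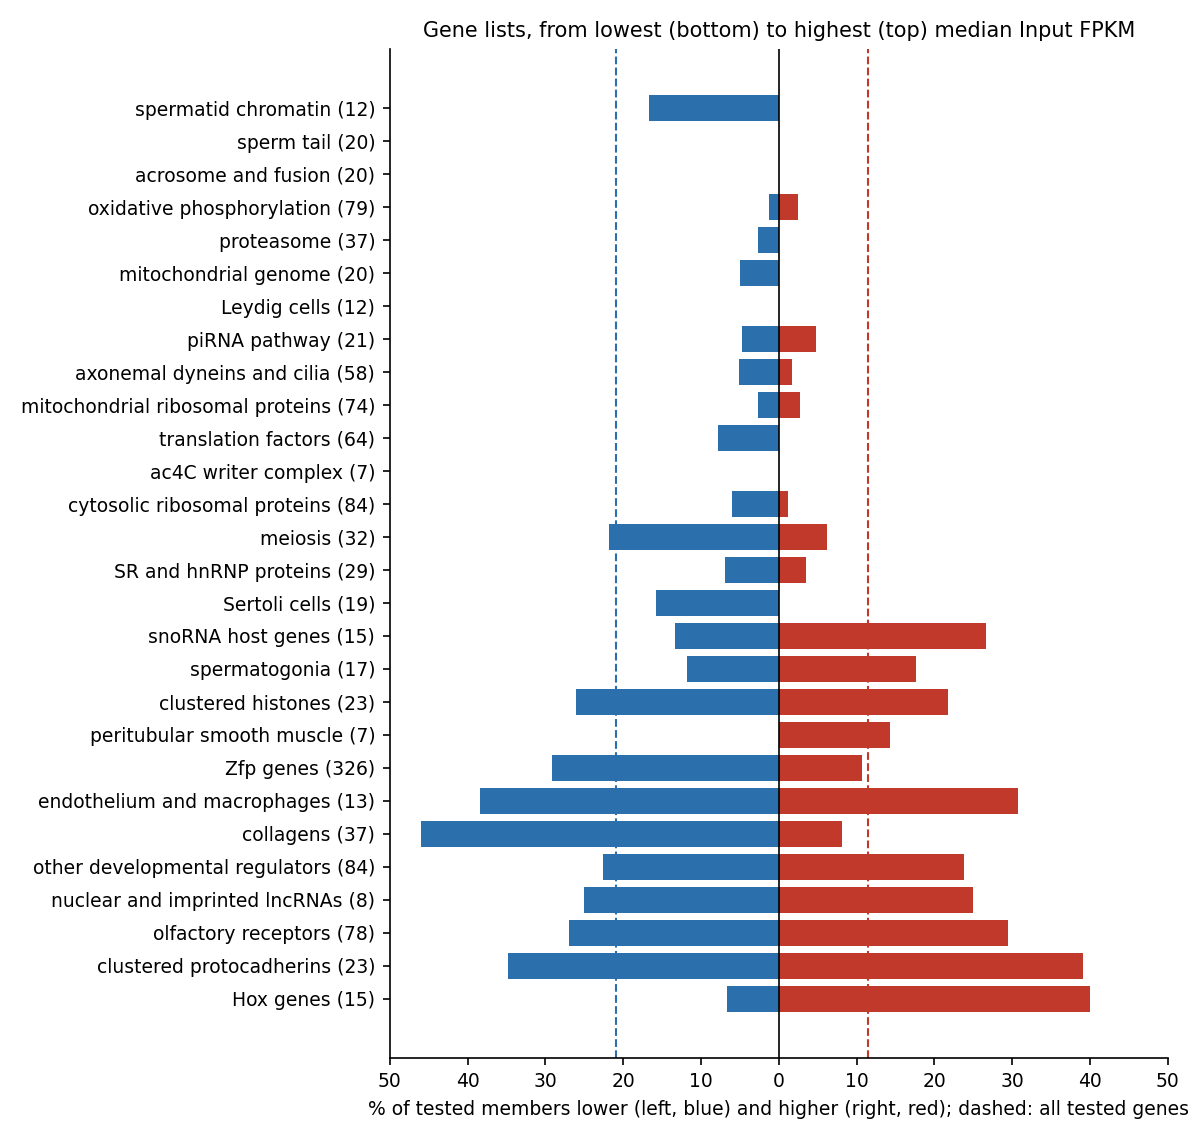
Share of tested members called lower (blue, leftwards) and higher (red, rightwards) in acRIP than in IgG, in percent, for the 28 lists with at least 7 tested members; the number tested is in brackets, lists are ordered by median Input FPKM, and dashed lines mark 20.9% and 11.5% of all tested genes. Most lists of abundant transcripts, at the top, had few members called, apart from spermatid chromatin with 16.7% lower and meiosis with 21.9% lower. Most lists of scarce transcripts, at the bottom, had many in both directions.

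Sequence features of the merged exons were described without a test. Median GC content was 48.1% in genes higher in acRIP, 47.7% in genes lower and 48.5% in genes called in neither direction, and the median repeat-masked share was 10.7%, 10.7% and 10.2%. Median exon length was 2498, 3052 and 3072 bases, and 21.1%, 14.7% and 15.1% of these genes had a single exon. Among protein coding genes alone the medians of length were 4162, 4216 and 4125 bases and that of GC content was 50.02% in genes higher, 48.9% in genes lower and 49.0% in genes called in neither direction. In the middle class these medians of GC content were 50.7%, 48.5% and 48.6%.

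The study describes a motif around CCCAGC in ac4C peaks of the human cell line HEK293T, and these letters were searched on the sense strand of the merged exons, with GCTGGG as the same letters on the other strand. CCCAGC was present in 64.4% of genes higher, 71.9% of genes lower and 71.0% of genes in neither group, and in 70.4% of all tested genes. Among protein coding genes the shares were 82.4%, 83.7% and 82.7%, at medians of 0.57, 0.55 and 0.56 matches per kilobase. The reverse complement had medians of 0.55, 0.53 and 0.52. The motif thus stood at nearly the same density in genes higher and lower, and its reverse complement did as well. A related motif with variable positions, which the study describes for testis peaks, was not searched here. The counts are per gene, so they say nothing of the motif at the acetylated stretch itself.

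Within protein coding genes of low and middle abundance, the shares called were compared along each feature. Genes over 8000 bases were called least often, with 8.59% of 2178 higher and 16.7% lower, against 16.8% higher and 27.5% lower among 1087 genes of 1000 to 2000 bases. Longer genes have more counts at the same FPKM, and no test separated length from counts. From under 40% to over 60% GC, the share higher went from 10.6% to 15.2% and the share lower from 26.1% to 21.5%, not in a steady order. Genes without the motif had 14.0% higher and 29.4% lower, and genes with more than 2 matches per kilobase had 14.5% and 20.9%. Genes are not replicates, and these shares are descriptions without a test.

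**Figure D5:**
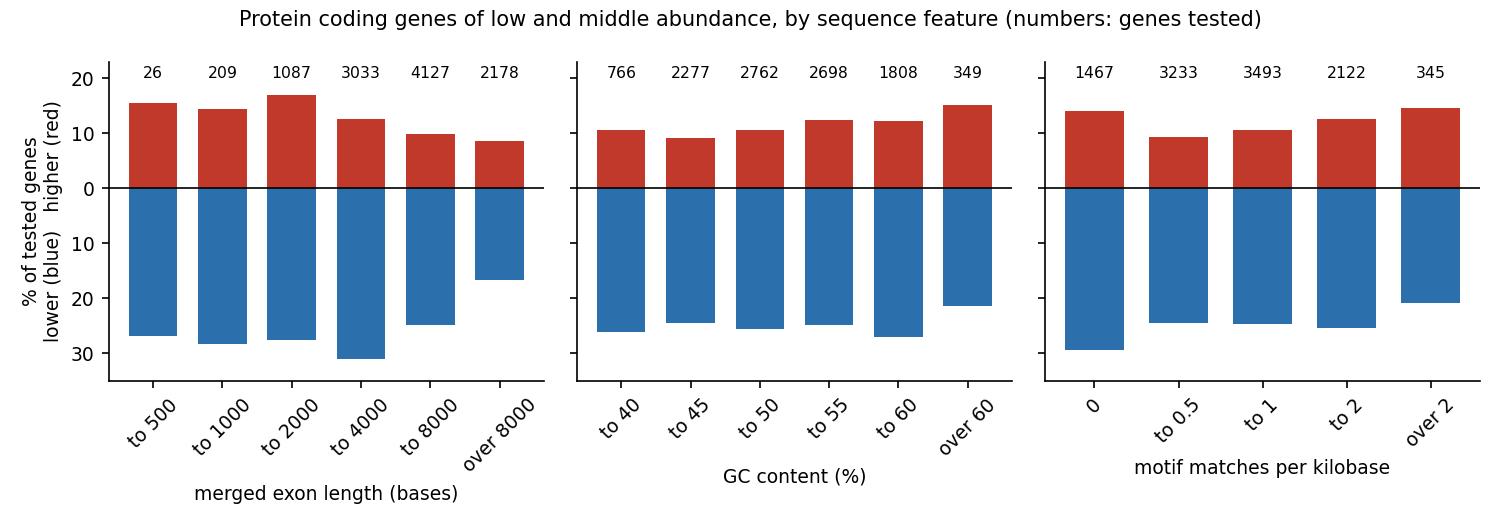
Share of protein coding genes of low and middle abundance called higher (red, upwards) and lower (blue, downwards) in acRIP than in IgG, in percent, by merged exon length, GC content and matches of CCCAGC per kilobase; numbers are genes tested, and labels give the upper limit of each bin. The shares varied less with GC content and motif density than with length and were smallest, at 8.59% and 16.7%, in genes over 8000 bases.

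By chromosome, the shares lay close together on the autosomes, from 9.74% to 13.4% higher and from 17.9% to 25.0% lower. The X chromosome, whose genes are largely silenced in spermatocytes and spermatids, had 103 of 860 tested genes higher and 28.1% lower, with a median log2 fold change of -0.19. Of 117 tested Y-linked genes, 6.84% were higher and 14.5% lower. X-linked genes also had fewer counts, with a median of 69.3 per library over the 6 libraries against 94.3 to 165 on the autosomes, and the part of counts in the X-linked share was not tested.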

How the data were processed

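The authors deposited whole-number counts per gene, not normalized, for 9 libraries of mouse testis. Per the submitters' processing notes the tools were Trim Galore 0.6.7, STAR 2.7.10a and featureCounts 2.0.2 with the mm10 build. By the study's methods the reads were paired and uniquely mapped, so genes with near-identical copies are undercounted, and the strand setting of the counting is not given in the sources used here. Groups came from the labels.

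The counts were tested with edgeR 4.0.16 (quasi-likelihood test, TMM, filterByExpr) in R 4.3.3, with a mean for each group over all 9 libraries, and p-values were adjusted (Benjamini-Hochberg) over all 22510 tested genes. The script was tested on simulated data. FPKM were computed here from the counts and the deposited gene lengths. Gene types and exon sequence came from the GENCODE annotation on GRCm38, where 55141 of 55401 genes matched.

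Named genes were called, had groups without overlap and had a mean of at least 50 counts: the 10 highest and 10 lowest protein coding genes, the 5 highest and 5 lowest of other types and by CPM, and the extremes of each abundance class. The genes followed by the study, the writer complex with Thumpd1, Pcbp3 and Pcbp4, globins and rRNA-like loci were named in full. From other lists up to 4 called members were eligible, by lowest adjusted p. Members and the 32 gene lists were chosen with earlier results of these data known.

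Alternatives were DESeq2 1.42.0, other scalings and filters, the 6 libraries alone, a test against 2-fold, limma 3.58.1 on log2 FPKM plus 0.1 or 1, a replicate block, other abundance classes and leaving out each library. Halved counts were added after seeing the data.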

Additional observations from a re-analysis of the deposited data

How the results depend on the processing

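No gene was called in the opposite direction under any alternative run. Normalization by DESeq2-type size factors, total counts or upper quartile, the 6 libraries alone, a filter of 10 counts in 3 libraries and the replicate block left the counts of genes called and the shares by type and abundance class within 1.5 times of the reported ones. Counts for single gene lists moved by more in 9 cases with the 6 libraries alone, where clustered protocadherins lower went to 4, clustered histones lower to 3, cytosolic ribosomal proteins to 0 higher and 3 lower, endothelium and macrophages lower to 3, spermatid chromatin and spermatogonia lower to 1 each, and mitochondrial ribosomal proteins and oxidative phosphorylation lower to 0. With upper quartile scaling, 4 rRNA-like loci and 1 mitochondrial transcript were higher and no mitochondrial ribosomal protein lower, with DESeq2-type size factors 1 mitochondrial ribosomal protein was lower, and with the replicate block 1 gene of oxidative phosphorylation was higher. With the replicate block 2557 genes were higher and 4639 lower, of which 2534 and 4620 were called without it. The deviations of same-numbered libraries from their group means had correlations of -0.0005, -0.001 and 0.0457 over 15136 genes. Noise of each library can hide a shared source, so these values cannot decide whether the numbers pair the samples. Leaving out a library gave 2568 to 2713 genes higher and 4885 to 5205 lower.

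Under DESeq2, which tested 35699 genes, the share higher was 11.03% of long noncoding genes, 5.21% of pseudogenes, 10.6% of TEC genes, 6.81% of the lowest class and 12.6% of the low class, and the share lower was 9.08% of pseudogenes, 24.1% of TEC genes and 12.4% of the lowest class. Without a filter, over the same number of genes, the share higher was 11.6% of long noncoding genes, 5.57% of pseudogenes, 11.1% of TEC genes, 7.25% of the lowest class and 13.04% of the low class, and the share lower was 10.1% of pseudogenes and 14.1% of the lowest class. On log2(FPKM + 0.1) the share higher was 10.4% of long noncoding genes, 5.50% of pseudogenes, 10.4% of TEC genes, 6.93% of the lowest class and 10.8% of the low class, and the share lower was 9.88% of pseudogenes, 22.5% of TEC genes, 10.5% of the lowest class and 24.5% of the low class. These 3 settings test more genes of few counts, which enlarges the denominators. Halved counts gave 21.0% lower in the lowest class.

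On log2(FPKM + 1), which shrinks the changes of scarce genes by construction, 1016 genes were higher and 1444 lower. The shares higher and lower were 1.58% and 3.40% of protein coding genes, 5.29% and 6.24% of long noncoding genes, 3.13% and 3.16% of pseudogenes, 3.36% and 3.15% of TEC genes, 2.52% and 0.939% of the lowest class, 3.51% and 2.77% of the low class and 3.70% and 9.47% of the middle class. Tested against a 2-fold change, 1526 genes were higher, with 5.10% of protein coding genes, 10.8% of long noncoding genes, 7.08% of pseudogenes, 11.5% of the low class and 3.75% of the middle class higher, and 0.404% higher and 1.88% lower in the class of high abundance.

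With classes set on all 9 libraries, 8.97% of the lowest class were higher and 66.9% lower, and 2.08% of the class of high abundance were lower. With classes set on CPM in Input, 21.3% of the lowest class were lower, the middle class had 14.3% higher and 29.6% lower, and the class of high abundance 1.82% and 6.38%.

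Depth limits the genes of low abundance most. Library preparation, amplification and precipitation followed the groups and cannot be told apart. Whether libraries of a group are separate animals is not given in the sources used here. The FPKM settings and the test against 2-fold removed most of the calls lost among named genes.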
